A study of Mus musculus with 8 samples.

Results

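The miRNAs miR-183, miR-96 and miR-182 are made from 1 cluster of genes and were measured here in neurons and Müller glia (MG) of the mouse retina. They are the panel's probes mmu-miR-183, mmu-miR-96 and mmu-miR-182, chosen by name, and make up 3 of its 566 mouse miRNA probes. A miRNA is a short RNA that lowers the translation and stability of mRNAs it pairs with. Each count is the number of barcoded probe pairs bound to that miRNA in 1 NanoString nCounter assay, a method without amplification in which a tag is first ligated to the mature miRNA.

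The 6 samples were pools, 1 per condition. All mice had the genotype given as Rlbp-Cre:tdTomato in the labels and as Rlbp-CreER: Stop f/f-tdTomato in the study, in which tamoxifen lets a Cre recombinase under the Rlbp1 promoter turn on the red protein tdTomato in MG, the main glia of the retina. That promoter is also active in pigmented and ciliary epithelium, which were dissected away. Cells were sorted into the brightest tdTomato+ cells (MG) and cells without fluorescence (neurons), and cells of intermediate brightness were discarded. The neuron pools thus hold any tdTomato- cell type and not photoreceptors alone. Adult MG and adult neurons came from 40 retinas, and P11 MG and P11 neurons from 32 retinas at postnatal day 11 to 12. Tamoxifen was given at 75 mg/kg on days 9 and 10 for P11 mice and after day 21 for adults. The cultured MG came from 20 retinas of P11 to P12 mice, were not sorted, were grown with serum and EGF, and were split to be counted after 8 or 14 days in vitro (8 DIV, 14 DIV). For the cultured samples the age label gives these 2 times the other way round from the titles, which were followed here. With 1 pool per condition no test between conditions was possible, and intervals below cover counting error only.

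The cluster is transcribed as a single precursor RNA from which the separate hairpins are cut, and it is known for its high expression in sensory cells such as photoreceptors, hair cells and olfactory neurons. In the mouse retina its miRNAs rise as photoreceptors mature and turn over quickly with light and dark. Loss of the cluster in mice leads to retinal degeneration, and changes in the seed of miR-96 cause hearing loss in mice and humans. The seed, bases 2 to 8 from the 5′ end, is the stretch that largely sets which mRNAs a miRNA pairs with.

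The mature sequences are shown because the probes have to tell these near relatives apart and because their seeds differ. They are RefSeq sequences of the GRCm38.p6 build, written 5′ to 3′ with the seed in capitals; the panel names carry no arm, and the 5p arm was taken.
miR-183: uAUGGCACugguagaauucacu
miR-96: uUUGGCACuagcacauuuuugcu
miR-182: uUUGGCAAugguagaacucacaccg

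Counted from 1 at the 5′ end, the seed of miR-96 differs from that of miR-183 by A2U. The seed of miR-182 differs from that of miR-96 by C8A, and from that of miR-183 by A2U and C8A. Over their whole length the closest pair was miR-183 and miR-182, identical at 18 of 22 positions, while miR-183 and miR-96 shared 13 of 22 and miR-96 and miR-182 shared 12 of 23. No other mouse probe of the panel had 1 of these seeds, as far as the 437 of 566 probes matched to a RefSeq mature sequence show, and the panel held no probe for a passenger arm of the cluster. How far the probes cross-react was not tested.

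All 3 hairpins lie on the minus strand of chromosome 6 inside the noncoding host gene Mirc35hg (30158640 to 30174125). In the order of transcription they are Mir183 (30169668 to 30169737), Mir96 (30169446 to 30169551) and Mir182 (30165918 to 30165992). Mir183 and Mir96 are 116 bases apart, and Mir182 lies another 3453 bases downstream.

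The pools differed in depth and in the controls that set the scale between them. Summed raw counts of mouse miRNAs ran from 273572 to 695390, and 129 to 186 of the 566 probes were above background, set at 2 SD above the mean of the 8 negative controls of the same assay (52.8 to 106 counts). Of the 7 miRNAs that mark MG in this study, 7 were above background in every MG pool, at 33.5% to 65.4% of all miRNA counts. They made up 11.9% of P11 neurons and 3.32% of adult neurons, with 6 of 7 above background in both. The study chose these 7 from the same adult pools, for high counts in MG and a low level in neurons. Their split between adult MG and adult neurons is therefore no independent check. Of the 5 neuronal markers (miR-124, miR-129-3p, miR-129-5p, miR-138 and miR-218), 4 were above background in each neuron pool, at 15.0% of counts at P11 and 31.7% in the adult. Of this miR-124 alone was 14.8% and 30.8%, and miR-138 was at background in both neuron pools. The 5 markers made up 0.221% to 0.513% of the counts in the MG pools. At 8 DIV all 5 were above background, with raw miR-138 at 83 and raw miR-129-3p at 869, against 388 for miR-129-3p in P11 neurons. The red blood cell markers miR-451, miR-144 and miR-486 were all at background in the MG pools and together 0.140% and 0.522% of P11 and adult neurons. In the neuron pools the markers of endothelium (0.0766% and 0.0230%), of mesenchymal cells (0.0190% and 0.0242%) and of leukocytes (0.0842% and 0.0562%) were scarce. Of the pigmented epithelium markers only miR-211 was above background there.

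To ask how much of the cluster the retinal cells carried, raw counts were set beside the negative controls. The cluster was among the most abundant miRNAs of neurons at both ages, and only miR-183 and miR-96 left a count above background in MG.

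For miR-183 the raw count was 12081 in P11 neurons, 33941 in adult neurons, 543 in P11 MG, 353 in adult MG, 172 in 8 DIV MG and 144 in 14 DIV MG. Both neuron pools were high, and the 2 cultured pools were the lowest, with overlapping Poisson limits of 147 to 200 and 121 to 170. By raw count it ranked 6 of 566 in P11 neurons, below let-7g, and 2 in adult neurons, where only miR-124 was higher.

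For miR-96 the raw count was 16345 in P11 neurons, 29415 in adult neurons, 629 in P11 MG, 285 in adult MG, 316 in 8 DIV MG and 146 in 14 DIV MG. It ranked 3 of 566 in each neuron pool, behind miR-181a and miR-124 at P11 and behind miR-124 and miR-183 in the adult. The limits of adult MG (253 to 320) and 8 DIV MG (282 to 353) overlapped before any scaling.

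For miR-182 the raw count was 1046 in P11 neurons, 1691 in adult neurons, 95 in P11 MG, 40 in adult MG, 32 in 8 DIV MG and 24 in 14 DIV MG. All 4 MG pools were at background, where 1, 4, 5 and 4 of the 8 negative controls read as high or higher. It ranked 31 of 566 in P11 neurons and 28 in adult neurons. Probes can differ in efficiency, so the lower counts of miR-182 do not show that fewer of its molecules were present.

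Together the members were 11.5% of all background-subtracted miRNA counts in P11 neurons and 19.4% in adult neurons. Of this, miR-183 took 4.71% and then 10.1%, miR-96 6.38% and then 8.77%, and miR-182 0.393% and then 0.495%. In MG their share was 0.241% at P11, 0.0829% in the adult, 0.0976% at 8 DIV and 0.0638% at 14 DIV.

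**Figure D1:**
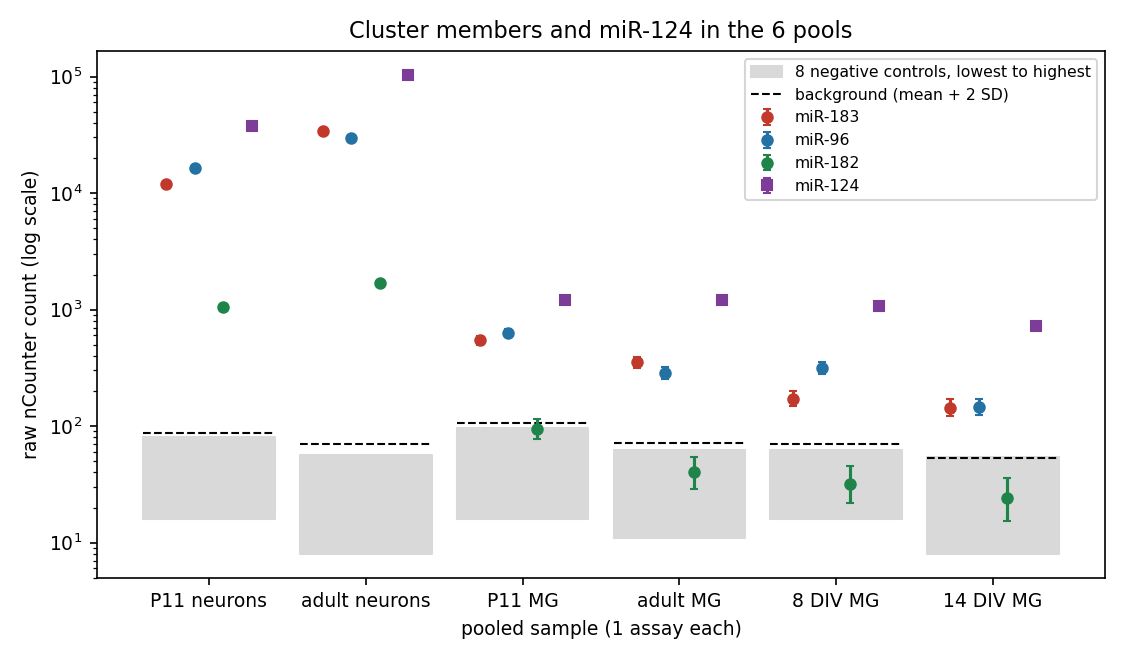
Raw nCounter counts of the 3 cluster members and of miR-124 in the 6 pools, on a log axis, with exact 95% Poisson limits as bars (hidden by the symbol where narrow). The grey boxes span the 8 negative controls and the dashed lines mark background; miR-182 stood at 24 to 95 counts in MG, under the dashed line in all 4 pools.

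To compare pools, the mean of the negative controls was subtracted and the result was scaled by the summed housekeeping mRNAs Actb, B2m, Gapdh and Rpl19, as the study did. A fold change below refers to these normalized counts unless another scale is named.

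The first comparison asked how the cluster differs between young and mature neurons. All 3 members were higher in adult than in P11 neurons under housekeeping scaling, miR-183 most of all, though miR-96 and miR-182 turned lower with the ligation controls. Normalized miR-183 was 17821 in P11 and 144868 in adult neurons, 8.13-fold higher (7.90 to 8.37). Normalized miR-96 was 24133 and 125532, 5.20-fold higher (5.06 to 5.34). Normalized miR-182 was 1485 and 7088, 4.77-fold higher (4.26 to 5.34). The interval of miR-183 lay above the other two, which overlapped. Before scaling, the background-subtracted counts were 2.82-fold, 1.80-fold and 1.65-fold higher.

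Most of the panel moved the same way on this scale. Of 156 miRNAs above background in at least 1 neuron pool, 120 were at least 2-fold higher in the adult, or 76.9%, so that 3 of 3 members past this fold is close to what the panel gives. The median log2 ratio over all 156 was 1.62. Against this median miR-183 stood higher by 1.41, miR-96 by 0.76 and miR-182 by 0.64 on the log2 scale. With values below background raised to it, which makes some ratios bounds, miR-183 was number 14 of 156 in order of the ratio, with miR-96 at 35 and miR-182 at 40.

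miR-124, the most abundant miRNA of nervous tissue, gives a neuronal reference for this. Its raw counts were 37741 and 103107, and its normalized count was 7.89-fold higher in the adult (7.76 to 8.02), number 17 of 156. The list of other miRNAs known from neurons held 11 names, of which 10 were on the panel and 7 above background in a neuron pool. All 7 were at least 2-fold higher in the adult on this scale, where 76.9% of all miRNAs were, with a median log2 ratio of 2.97 against 1.62 for all. Among them miR-129-3p went from 388 to 2950 raw counts (log2 ratio 4.61) and miR-132, which neuronal activity induces, from 291 to 707 (2.97). Below the median of all were miR-218 (1.47), miR-137 (1.34) and miR-7b (1.41, a lower bound, since it was at background at P11). Before scaling, miR-218 went from 230 to 212 raw counts and miR-137 from 104 to 86.

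**Figure D2:**
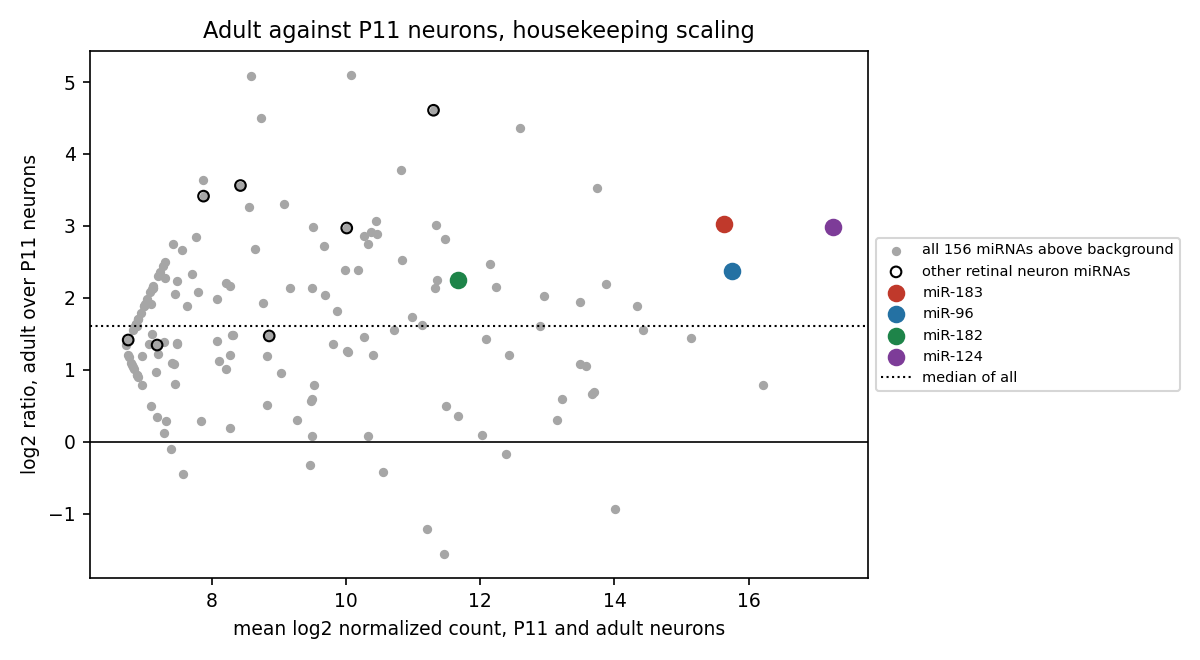
Log2 ratio of adult over P11 neurons against the mean log2 normalized count for the 156 miRNAs above background in either pool (grey), with the cluster members and miR-124 in colour and the other neuronal miRNAs circled. The dotted line is the median of all, 1.62; the members lie above it at 3.02 (miR-183), 2.38 (miR-96) and 2.25 (miR-182).

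How large the rise was depended on the scale. Among 9 scalings the log2 ratio of miR-183 ran from 0.24 with the ligation controls to 3.64 with Actb alone and was above 0 in all 9. The log2 ratios of miR-96 and miR-182 were above 0 in 8 of 9 and turned to -0.41 and -0.53 with the ligation controls. Relative to the total of all miRNA counts the log2 ratios were 1.10, 0.46 and 0.33. The controls themselves moved between these pools: Actb had 4431 raw counts in P11 and 1025 in adult neurons, Rpl19 1464 and 498, and Gapdh 1440 and 1070. B2m was at background in both, with 38 and 17 raw counts. The strongest ligation control rose from 4966 to 12313. A scaling shifts all miRNAs of a pool alike, so the order miR-183, miR-96, miR-182 and their distances to the median of all were the same under every scaling.

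**Figure D3:**
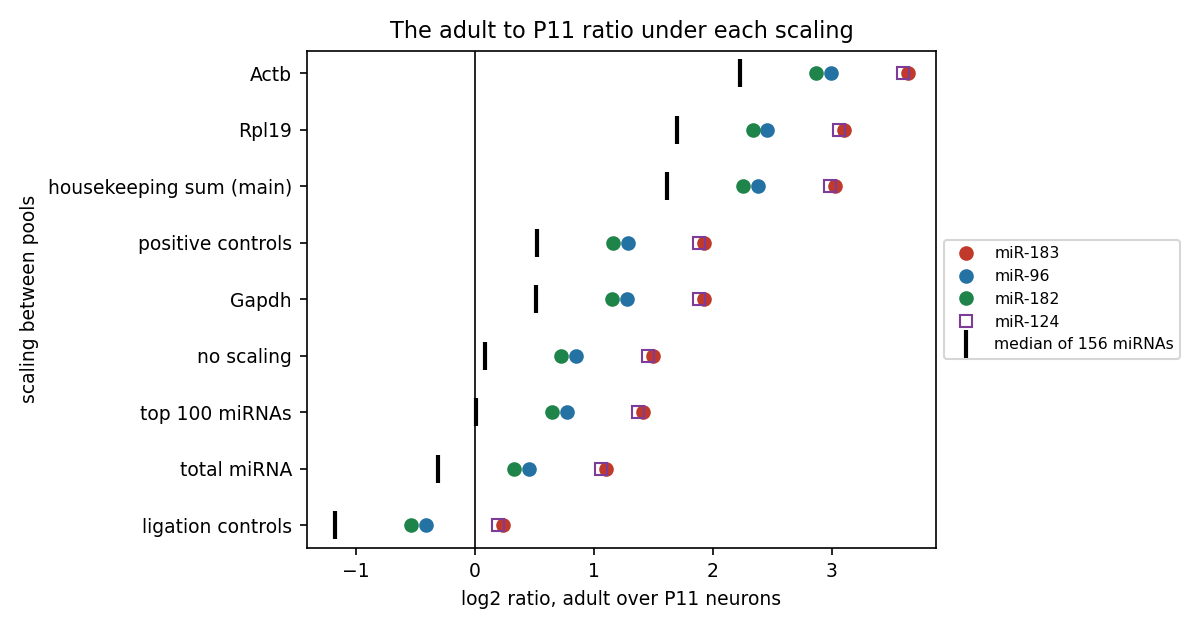
Log2 ratio of adult over P11 neurons for the cluster members and miR-124 under 9 scalings between the pools, with the median of 156 miRNAs as a bar. The ratio of miR-183 runs from 0.24 to 3.64, and the spacing of the symbols is the same in each row.

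MG markers and red blood cell markers moved with this comparison. The summed raw counts of the 7 MG markers were 30627 in P11 and 11349 in adult neurons, and those of the 3 red blood cell markers 484 and 1846. The MG markers did not move alike: raw miR-9 went from 15366 to 2821 and raw miR-125b-5p from 2984 to 3140. On the housekeeping scale the median log2 ratio of the 6 tested was 0.60, beside 1.62 for all miRNAs. On that scale 2 were at least 2-fold higher in the adult and 1 at least 2-fold lower. In bulk samples, fewer cells of a type and less RNA per cell cannot be told apart. The part of cell makeup in the rise was not tested.

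Ratios of members within a pool need no scaling. The balance within the cluster moved towards miR-183 in adult neurons. miR-96 had 1.35 counts per count of miR-183 in P11 neurons (1.31 to 1.40) and 0.867 in adult neurons (0.848 to 0.886), 1.56-fold lower (1.48 to 1.65). The 2 intervals lie on either side of 1, so the order of the counts turned, with miR-96 above miR-183 at P11 and below it in the adult. For miR-182 the ratio to miR-183 was 0.0834 at P11 and 0.0489 in the adult, 1.70-fold lower (1.48 to 1.96). The ratio of miR-182 to miR-96 was 0.0616 and 0.0565, and the interval of its change, 0.948 to 1.25, holds 1. The member that stood apart was thus miR-183, the first in the order of transcription.

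miR-183 kept pace with miR-124. Its ratio to miR-124 was 0.319 in P11 and 0.329 in adult neurons, a change of 1.03-fold (0.985 to 1.08). For miR-96 this ratio fell 1.52-fold, from 0.432 to 0.285, and for miR-182 it was 0.0266 at P11 and 0.0161 in the adult. No replicate pools exist to set these changes against the spread between samples.

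In MG the ratio of miR-96 to miR-183 was 1.17 at P11 (0.982 to 1.41) and 0.784 in the adult (0.607 to 1.01). These values lay on the same side of 1 as those of the neurons of the same age, though both intervals hold 1, and the change with age, 1.50-fold, has an interval from 0.971 to 2.32. In culture the ratio was 2.06 at 8 DIV (1.50 to 2.85), above that of P11 MG by 1.75-fold (1.07 to 2.90), and 1.02 at 14 DIV (0.682 to 1.52). The 8 DIV pool had the highest ratio of the 6, though its change against 14 DIV, 2.03-fold, has an interval from 0.992 to 4.17 that holds 1.

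**Figure D4:**
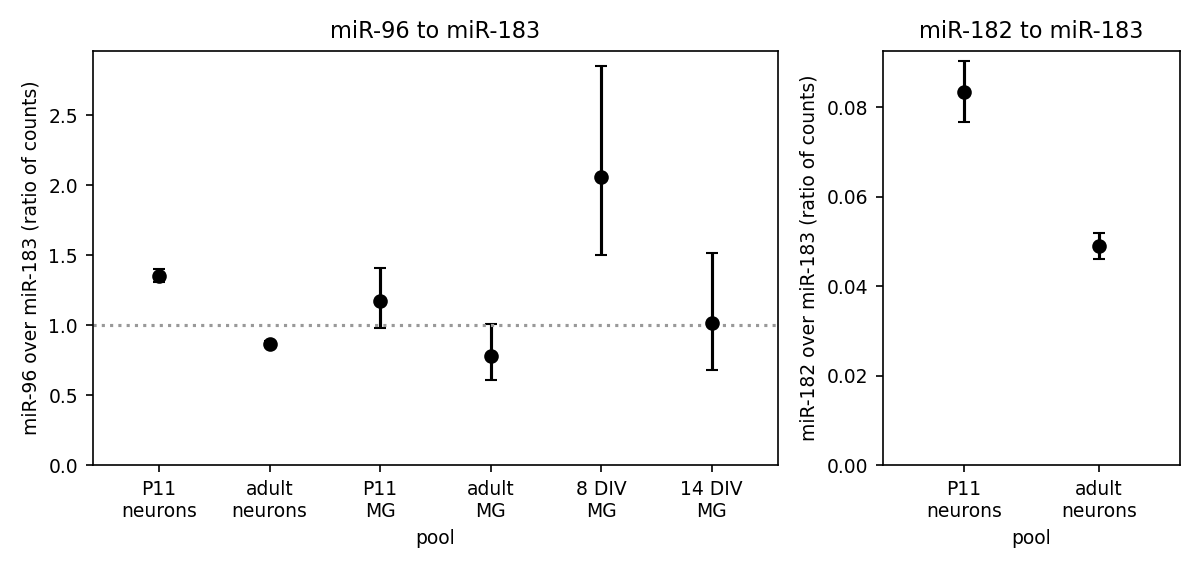
Ratio of background-subtracted counts of miR-96 to miR-183 in the 6 pools (left) and of miR-182 to miR-183 in the 2 neuron pools (right), with counting limits as bars and a dotted line at equal counts. The neuron ratios were 1.35 at P11 and 0.867 in the adult for miR-96, and 0.0834 and 0.0489 for miR-182.

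The next comparison asked how far the cluster separates neurons from MG of the same age. All 3 members were far higher in neurons at both ages, as was miR-124. In the adult, miR-183 was 374-fold (329 to 427) and miR-96 413-fold (358 to 481) higher in neurons. miR-124 was 305-fold higher (286 to 325), and miR-182 at least 174-fold higher. No order among all miRNAs is given, since others, such as miR-451 (at least 164-fold), were also at background in MG and have only a lower bound. For comparison, 133 of 199 miRNAs, or 66.8%, were at least 2-fold higher in adult neurons on this scale, with a median log2 ratio of 1.67.

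On the housekeeping scale these ratios were smaller at P11. miR-183 was 39.9-fold (35.7 to 44.6) and miR-96 45.9-fold (41.6 to 50.9) higher in P11 neurons than in P11 MG, and miR-182 at least 29.5-fold. Above the values of miR-183 and miR-96 were those of miR-124, 52.6-fold higher, and of miR-211, a miRNA that light also regulates in the retina, with a log2 ratio of 6.08. Here 37 of 171 miRNAs, or 21.6%, were at least 2-fold higher in neurons, and the median log2 ratio was 0.15. miR-182 entered both counts only through its neuron pools. Over the 9 scalings the log2 ratio of miR-183 ran from 6.17 to 9.57 in the adult and from 3.95 to 6.56 at P11, and that of miR-96 from 6.31 to 9.71 and from 4.16 to 6.76.

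Of the neuronal list without miR-124, 7 of 7 tested were at least 2-fold higher in adult neurons than in adult MG (median log2 ratio 4.24), beside 66.8% of all miRNAs (1.67). At P11 this held for 3 of 6 (median 1.00), beside 21.6% of all (0.15). Only miR-129-3p, miR-132 and miR-137 of this list were above background in adult MG, and only miR-129-3p and miR-132 in P11 MG. The others entered only through their neuron pools, so their ratios are lower bounds, and both medians rest on such bounds. Measured at both ages, miR-129-3p and miR-132 had log2 ratios of 1.01 and 2.50 at P11 and 5.20 and 4.51 in the adult. At P11 miR-129-3p had 388 raw counts in neurons and 330 in MG. Of the other light-regulated miRNAs of the retina, miR-211 was higher in neurons at both ages, while miR-204, its close relative, was lower in neurons by 4.18 on the log2 scale in the adult and had 247414 raw counts in adult MG.

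**Figure D5:**
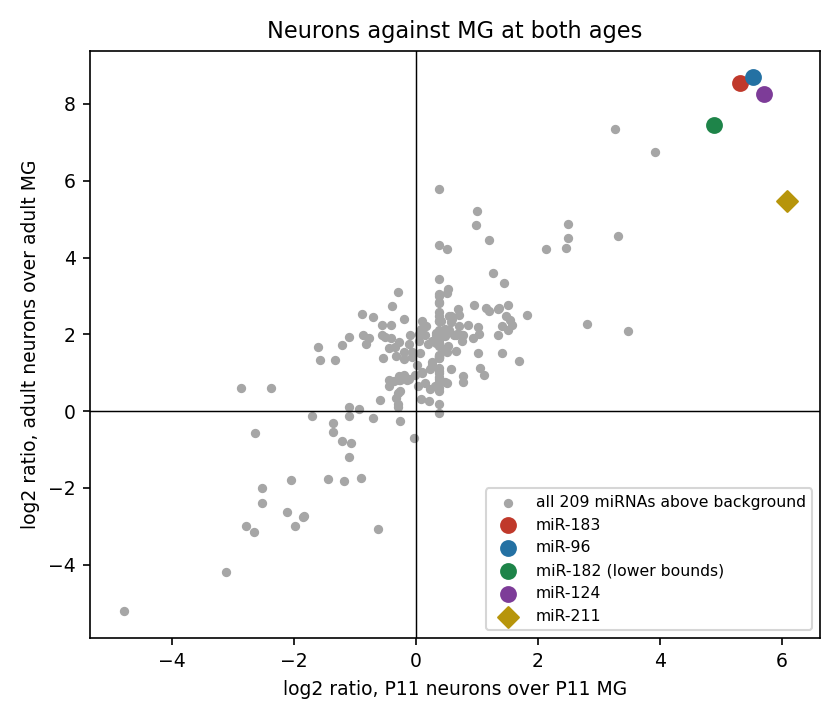
Log2 ratio of neurons over MG in the adult (vertical) against P11 (horizontal) for the 209 miRNAs above background in at least 1 of the 4 sorted pools, under housekeeping scaling with values below background raised to it. The cluster members, miR-124 and miR-211 stand at the upper right; both values of miR-182 are lower bounds.

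The traces in sorted MG were small shares of the level in neurons. In the adult the MG level was 0.267% of the neuronal level for miR-183 (0.234% to 0.304%), 0.242% for miR-96 (0.208% to 0.280%) and 0.328% for miR-124 (0.307% to 0.350%). For miR-182 it was at most 0.575%. At P11 these shares were 2.51% for miR-183 (2.24% to 2.80%), 2.18% for miR-96 (1.96% to 2.41%) and 1.90% for miR-124 (1.77% to 2.04%), and at most 3.38% for miR-182. The shares and their gap between ages depend on the scaling. Over 9 scalings the MG level of miR-183, as a fraction of the neuronal level, ran from 0.00132 to 0.0139 in the adult. At P11 it ran from 0.0106 to 0.0646. With the ligation controls the fractions were 0.00855 in the adult and 0.0106 at P11. At either age the shares of miR-183, miR-96 and miR-124 lay within 1.5 times of each other, but not all within counting limits. The ratio of miR-183 to miR-124 in MG was 1.32 times that in neurons at P11 (1.10 to 1.58). In the adult it was 0.815 times that in neurons (0.670 to 0.988). For the ratio of miR-96 to miR-124 these values were 1.14 (0.964 to 1.36) and 0.737 (0.594 to 0.909). Other miRNAs higher in neurons varied: miR-132 stood at 4.38% in the adult and 17.7% at P11, and miR-211 at 2.24% and 1.48%. The part of neuronal RNA in the counts of miR-183 and miR-96 in sorted MG was not tested.

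The next question was whether the traces changed as MG matured. Normalized miR-183 was 447 in P11 MG and 387 in adult MG, a ratio of 0.867 (0.700 to 1.07) whose interval holds 1. Its sign turned with Rpl19 alone (log2 ratio 0.05) or B2m alone (0.13). Normalized miR-96 was 525 and 304, a ratio of 0.578 (0.462 to 0.721), and it was below 1 under all 10 scalings. On the housekeeping scale neither passed a 2-fold decrease, which 20 of 179 miRNAs, or 11.2%, did. Over the 10 scalings miR-96 passed it in 3 and miR-183 in 1. With total miRNA scaling miR-183 was 2.30-fold and miR-96 3.45-fold lower, and 36.3% of all miRNAs were at least 2-fold lower. miR-124 was 1.36-fold higher in adult MG (1.21 to 1.53), though lower under 2 of 10 scalings, and relative to it miR-183 was 1.57-fold and miR-96 2.35-fold lower in the adult.

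The last comparison asked what was left of the cluster in cultured MG. Both detected members were lower in culture than in freshly sorted P11 MG, and miR-182 was at background in each pool. At 8 DIV normalized miR-183 was 89.4, against 447 in P11 MG, and lower by 2.32 on the log2 scale (3.78-fold to 6.70-fold), and miR-96 was 184, 2.85-fold lower (2.31 to 3.53). Here 44 of 196 miRNAs, or 22.4%, were at least 2-fold lower, with a median log2 ratio of -0.46. At 14 DIV miR-183 was 72.5, 6.17-fold lower (4.62 to 8.33), and miR-96 was 73.7, 7.12-fold lower (5.40 to 9.53). In that pool 91 of 202 miRNAs, or 45.0%, were at least 2-fold lower, with a median of -0.83. Under all 10 scalings both members stayed below their P11 level in both cultures, although miR-96 at 8 DIV was lower by as little as 1.37-fold.

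On the housekeeping scale miR-183 differed between the cultures by less than counting error. Its ratio of 14 DIV to 8 DIV was 0.811 (0.547 to 1.20). On that scale miR-96 was lower at 14 DIV, at 0.400 (0.288 to 0.551). Neither result held under every scaling. With Actb alone miR-183 was 2.39-fold below P11 MG at 8 DIV and 5.59-fold below it at 14 DIV. With B2m alone these values were 45.52-fold and 20.63-fold. For miR-96 they were 25.97-fold and 23.83-fold with B2m alone, the only scaling at which miR-96 was not lower at 14 DIV. By the age label the order of these 2 pools, and so the direction, is the reverse.

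In culture the cluster was also low relative to miR-124. miR-124 had 1072 raw counts at 8 DIV and 722 at 14 DIV, 1.56-fold and 2.52-fold below P11 MG, though at 8 DIV it was higher under 4 of 10 scalings. Relative to miR-124 within the pool, miR-183 was 3.21-fold lower at 8 DIV (2.15 to 4.86) and 2.45-fold lower at 14 DIV (1.60 to 3.78) than in P11 MG, and miR-96 was 1.83-fold and 2.83-fold lower. Of the neuronal list without miR-124, only miR-129-3p and miR-132 were above background in P11 MG. The others tested entered only through the cultured pool, so their ratios are lower bounds and cannot show a decrease. At 8 DIV, 0 of 7 were at least 2-fold lower than in P11 MG, beside 22.4% of all miRNAs. There 3 were at least 2-fold higher, beside 25 of 196 or 12.8% of all. Among them were miR-132 with 122 raw counts in P11 MG and 893 at 8 DIV, and miR-218, on a bound, with 32 and 234. At 14 DIV, 2 of 6 passed a 2-fold decrease, beside 45.0% of all. These were miR-128 and miR-138, both at background in P11 MG, so neither is a measured decrease. The mesenchymal markers miR-143 and miR-145, at background in sorted MG, had 445 and 788 raw counts at 8 DIV and 3167 and 9100 at 14 DIV, and their part in these levels was not tested.

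The miRNAs whose profile over the 6 pools was most like the mean of miR-183 and miR-96 were sought among 247 miRNAs above background in at least 1 pool. By Pearson r on log2 normalized counts, with values below background raised to it, these were miR-500 (0.997), miR-124 (0.994), miR-381 (0.991), miR-1198 (0.984) and miR-451 (0.984). All profiles share the scaling factors of the 6 pools and the contrast of 2 neuron pools with 4 MG pools. miR-500 had 558 and 1060 raw counts in P11 and adult neurons and 30 to 50 in MG, where it was at background. miR-381 had 121 and 90 raw counts in the neuron pools and 61 to 88 in MG, and it was number 39 when the pools were scaled to total miRNA instead. miR-451, a miRNA of red blood cells, had 371 and 1599 raw counts in the neuron pools and lay under background in every MG pool. Thus among miRNAs above background in every pool the profile of the cluster was followed most closely by miR-124.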

How the data were processed

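The deposited raw table holds unnormalized counts, 1 per probe and pool, which the authors obtained with the NanoString mouse miRNA panel. The deposited value table, read as a score, holds the counts the authors normalized with nSolver to housekeeping mRNAs and controls. Its 8 columns come from 6 pools, since sorted MG stand in both data sets. The members' deposited values match those rebuilt from the raw table within 3 counts, so raw counts were used throughout.

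The mean of the 8 negative controls was subtracted and each pool was scaled to the mean sum of the 4 housekeeping mRNAs. Background lay 2 SD above that mean, and values under it were raised to it for a bound. Limits are exact 95% Poisson limits. A ratio's limits set the low limit of one count against the high limit of its partner. Background and scaling were taken as fixed, and no p-value was computed. A miRNA counted as higher or lower at 2-fold. Alternatives were 8 or 9 other scalings, 2 background rules, a minimum of 100 raw counts, a 4-fold limit and the deposited values.

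Named miRNAs are the members, the fixed lists (neuronal, light-regulated, cell type markers), the 5 with the most similar profile and neighbours in rank. Members and lists were chosen with earlier results of these data known. The calculation was tested on simulated counts. Scripts ran on Python 3.11.15, with scipy 1.17.1 for limits, matplotlib 3.10.9 for plots, and numpy 2.4.6 and pandas 2.3.3 for the tables. Sequences and positions are from RefSeq tables of GRCm38.p6.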

Additional observations from a re-analysis of the deposited data

Results flagged for a closer look

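For miR-183 the change from P11 to adult had opposite signs in neurons (log2 ratio 3.02) and in sorted MG (-0.21), a gap of 3.23 on the log2 scale. For miR-96 the log2 ratios were 2.38 and -0.79, a gap of 3.17. The sign of miR-183 in MG is not settled, since the interval of its ratio, 0.700 to 1.07, holds 1. The median log2 ratio of all tested miRNAs also differed, at 1.62 in neurons and 0.27 in MG. With 1 pool per condition neither gap was tested. The opposite signs did not hold under every scaling: miR-183 in MG turned to 0.05 with Rpl19 alone, and miR-96 in neurons turned to -0.41 with the ligation controls.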

How the results depend on the processing

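The 4 ratios of miR-96 and miR-182 to miR-183 in neurons stayed within their counting limits under every background rule and with the deposited values. The ratios between pools moved with the scaling. In the order no scaling, positive controls, ligation controls, total miRNA, top 100 miRNAs, Actb, Gapdh and Rpl19, the log2 ratio of miR-183 in adult over P11 neurons was 1.49, 1.93, 0.24, 1.10, 1.41, 3.64, 1.92 and 3.10. In adult neurons over adult MG it was 6.75, 6.80, 6.87, 7.77, 7.14, 9.57, 6.17 and 7.22. In P11 neurons over P11 MG it was 4.61, 4.56 and 6.56 with the first 3 and 5.01, 5.69, 3.95 and 4.16 with the last 4. Total miRNA scaling left that ratio within its limits. The share of miRNAs at least 2-fold higher in adult than P11 neurons was 17.9% with no scaling and with the top 100 miRNAs. It was 34.0% with the positive controls and with Gapdh, 3.21% with the ligation controls, 11.5% with total miRNA and 37.2% at a 4-fold limit. With the ligation controls miR-96 and miR-182 were lower in adult neurons, at -0.41 and -0.53. Subtracting the background level in place of the mean gave 3.07, 8.75 and 5.48 for miR-183 in these 3 comparisons. Leaving out the subtraction gave 8.34 in adult neurons over adult MG. B2m alone gave no value for neurons, since it was at background there. Taking the time in culture from the age label exchanged the counts of the 2 cultures. Of the 5 miRNAs most like the cluster, 4 were shared with positive-control scaling and 3 with total miRNA scaling. No paired analysis was possible because each condition was 1 pool, and the data set numbers in the labels mark the same pools under a second normalization. A single pool per condition and, for miR-182 in MG, counts at background limit what can be read.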
